A study of Mus musculus and Homo sapiens with 65 samples.

Results

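In mammals the solute carriers are the largest superfamily of membrane transport proteins, named by the symbol Slc, a family number, a letter and a member number. Levels of these genes were taken from RNA-seq of mouse late 2-cell embryos. A gene was kept where its symbol has that form and its mean level over the 3 wild-type libraries, or over the 2 alpha-amanitin libraries, was 5 FPKM or more (fragment number scaled to transcript length and to the library's mapped total). Of 376 such genes among 32287 rows, 93 were kept, and they fall into 34 of the 49 families in the files. Of the 93, 43 passed through both means, 41 through the wild-type mean alone and 9 through the alpha-amanitin mean alone. Because these levels chose the members, alpha-amanitin and wild-type values are given below as a description, and the Kdm5a+b comparison is the one that is tested.

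Embryos of all 4 groups were grown in G1 plus medium to the late 2-cell stage, and RNA was taken from lysates of whole cells, with no strain and no number of embryos per library in the labels. The 2 alpha-amanitin libraries come from embryos treated with a fungal inhibitor of RNA polymerase II, whose dose and route the sources used here do not give. The 2 Kdm5a+b libraries come from embryos injected as zygotes, at 0.5 dpc (days after mating), with fluorescein-tagged morpholinos against Kdm5a and Kdm5b, which encode demethylases of lysine 4 of histone H3. The 2 mismatch control libraries come from zygotes injected with morpholinos that carry 5 mismatched bases, and the 3 wild-type libraries from embryos labelled wild type. The series holds 65 samples, and its ChIP-seq, bisulfite sequencing and other RNA-seq libraries are not analysed here. A morpholino acts on the mRNA as a block and need not lower its amount, so the levels of Kdm5a (19.5 and 15.3 FPKM with Kdm5a+b morpholinos, 12.8 and 9.44 FPKM in mismatch controls) and of Kdm5b (38.1 and 27.6 FPKM with Kdm5a+b morpholinos, 55.3 and 39.6 FPKM in mismatch controls) do not check the labels.

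Solute carriers move nutrients, ions, metals and metabolites across the plasma membrane and the membranes of organelles, most of them by coupling the substrate to an ion gradient or by exchange. The cleavage-stage mouse embryo takes up pyruvate and lactate as fuels, uses glycine as an organic osmolyte to hold its volume, and carries large stores of zinc from the egg. Late in the 2-cell stage transcripts stored in the egg are being cleared while transcription of the embryonic genome starts in earnest, and alpha-amanitin blocks that transcription.

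Genes of the 2-cell stage were low with alpha-amanitin and high in the other groups. The summed level of 7 marker genes of the 2-cell embryo was 4.91 to 8.90 FPKM with alpha-amanitin, 290.1 to 344 FPKM with Kdm5a+b morpholinos, 288 to 300.1 FPKM in mismatch controls and 235 to 303 FPKM in wild type. The sum of 8 oocyte genes was 959 to 1037 FPKM with alpha-amanitin, 625 to 637 FPKM with Kdm5a+b morpholinos, 488 to 565 FPKM in mismatch controls and 490.1 to 617 FPKM in wild type. Of 8 cumulus and granulosa cell markers 6 lay under 1 FPKM in all 9 libraries and Foxl2 was at 0, and their sum was 0.379 to 0.529 FPKM with alpha-amanitin, 0.475 to 0.986 FPKM with Kdm5a+b morpholinos, 1.25 to 3.62 FPKM in mismatch controls and 2.27 to 4.20 FPKM in wild type. The sums of 7 sperm and 8 blood markers stayed at or below 11.1 FPKM, with Prm1, Hbb-bt and Hbb-bs at 0 throughout. The 7 oviduct markers summed to 1.17 to 3.97 FPKM with alpha-amanitin, 35.2 to 44.5 FPKM with Kdm5a+b morpholinos, 38.9 to 45.5 FPKM in mismatch controls and 24.1 to 63.3 FPKM in wild type. Of that sum Epcam alone gave 0.108 and 0 FPKM with alpha-amanitin, 34.7 and 32.9 FPKM with Kdm5a+b morpholinos, 39.5 and 26.3 FPKM in mismatch controls and 19.4, 58.5 and 31.4 FPKM in wild type, while each of the other 6 markers stayed at or below 7.83 FPKM. The part of these cells in the members' values was not tested. From the files' own bounds, the median uncertainty of a member's level was 18.4% and 18.5% with alpha-amanitin and 9.36% to 16% elsewhere, for 68 members with usable bounds, and read depth is unknown. Usable bounds needed a lower bound above 0 in all 9 libraries. Members listed at 0 in a library, as some are with alpha-amanitin, are thus left out of these medians.

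Members at the cut of the rule were counted in each library. Members at 5 FPKM or more numbered 48 and 47 with alpha-amanitin, 65 and 71 with Kdm5a+b morpholinos, 70 and 65 in mismatch controls, and 71, 73 and 79 in wild type. Only 28 of the 93 stood at 5 FPKM or more in every library. The rule used this cut on wild type and alpha-amanitin, and 84 members passed through the wild-type mean. Nothing is therefore read from the lower counts with alpha-amanitin. Over all rows, genes at 1 FPKM or more numbered 7977 and 7935 with alpha-amanitin and 10611 to 11228 elsewhere. The members together made up 0.636% and 0.645% of the summed FPKM of a library with alpha-amanitin, 0.773% and 0.821% with Kdm5a+b morpholinos, 0.800% and 0.849% in mismatch controls, and 0.736% to 0.855% in wild type. FPKM is relative to the library's own total, and in bulk RNA fewer cells and less RNA per cell cannot be told apart.

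**Figure D1:**
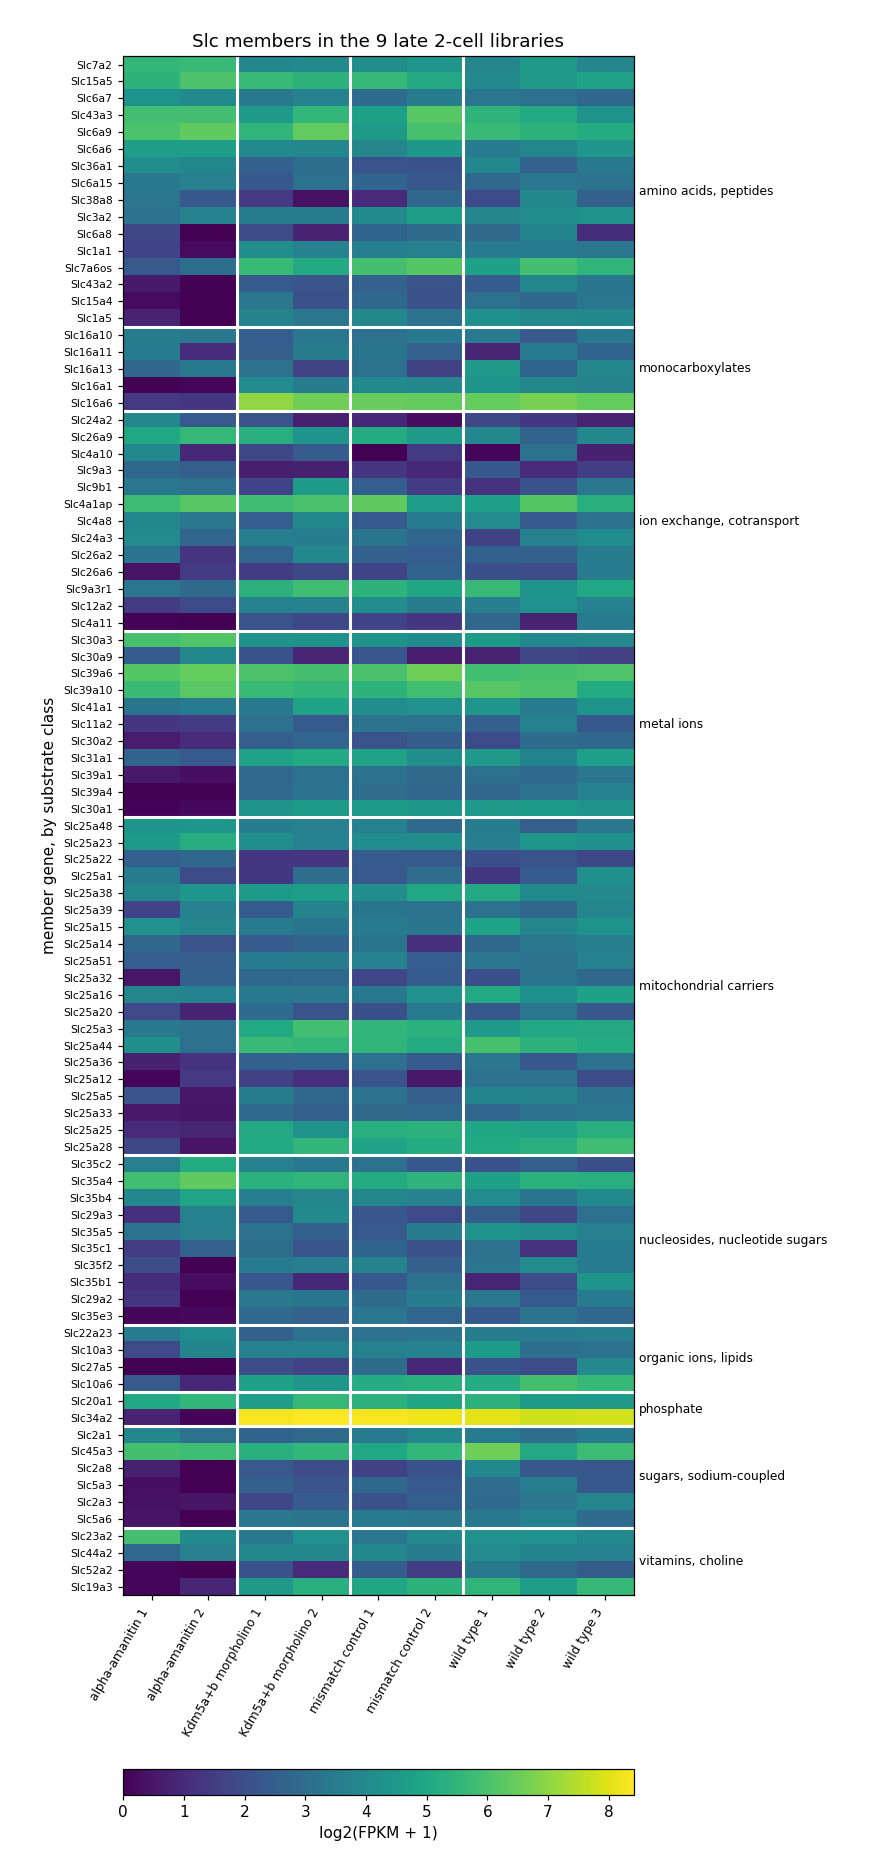
Level of 91 of the 93 members (rows, grouped by substrate class and ordered within a class by the log2 difference between alpha-amanitin and wild type) in the 9 libraries (columns); colour is log2(FPKM + 1). The alpha-amanitin columns are dark for many rows near the foot of each class, among them Slc34a2, and the median level of the members was 5.78 and 5.18 FPKM with alpha-amanitin and 8.56 to 12 FPKM in the other 7 libraries.

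**Figure D2:**
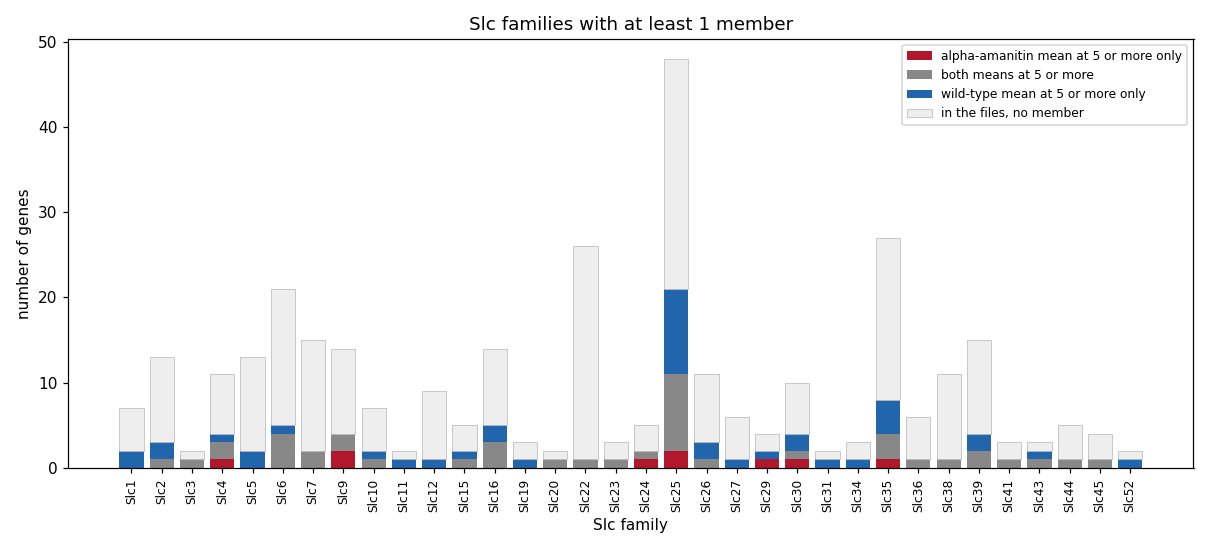
Number of genes in each of the 34 Slc families with at least 1 member; coloured parts of a bar count members by the mean that passed 5 FPKM, and the pale part counts genes of the family in the files that are no member. Slc25, the mitochondrial carriers, holds 21 of the 93 members.

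Family size and membership differed widely. The mitochondrial carrier family Slc25 gave 21 members of 48 genes in the files. Slc35, carriers of nucleotide sugars in the endoplasmic reticulum and Golgi, gave 8 of 27, while Slc22, organic ion carriers best known from liver and kidney, gave 1 of 26. The 283 genes that are no member include 161 under 1 FPKM in all 9 libraries, 8 at 0 in all 9, and 7 whose mean in an injected group reached 5 FPKM. At the threshold, members just inside included Slc30a2 (larger mean 5.19 FPKM) and Slc26a6 (5.42 FPKM), and genes just outside included Slc30a5 (4.70 FPKM) and Slc26a5 (4.37 FPKM). Membership of 18 of the 93 rested on 1 library: for example, the wild-type values of Slc35b1 were 0.828, 2.86 and 19.4 FPKM, and Slc4a10 stood at 14.1 and 0.968 FPKM with alpha-amanitin.

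Of the 93 genes, at least 3 carry an Slc symbol but are not transporters, and these 3 have a carrier's symbol with a suffix. The heavy chain Slc3a2 and the ligase Slc27a5 are described below. Slc7a6os is a partner on the strand opposite Slc7a6, Slc9a3r1 encodes the scaffold protein NHERF1, and Slc4a1ap encodes an adaptor protein. The counting is not stated to use strand, and the exons of 10 members overlap those of another protein-coding gene (Slc6a9, Slc1a1, Slc16a6, Slc4a1ap, Slc11a2, Slc25a25, Slc35a4, Slc10a3, Slc5a6 and Slc5a3), so their values are uncertain.

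Some members were far lower with alpha-amanitin than in wild type, and others higher. The group mean was lower in 59 members and higher in 34, at least 4-fold lower in 37 and at least 4-fold higher in 3 (Slc35c2, Slc24a2 and Slc30a9), and at least 10-fold lower in 24 and at least 10-fold higher in 0. Those 3 all passed through the alpha-amanitin mean alone, and membership of Slc24a2 and Slc30a9 rested on 1 library. Shares over all genes are not given for these fold counts. The median difference in log2(FPKM + 1) was -0.66 (quartiles -2.44 and 0.58) over the members and -0.56 (quartiles -1.57 and 0.31) over all 13137 genes tested, those with 1 FPKM or more in at least 2 libraries, which include all 93 members. The log2 difference was above 0 in 36 members, beside 33.9% of all genes, and below 0 in 57, beside 65.8%. Both alpha-amanitin libraries lay below all 3 wild-type libraries for 44 members, beside 41.1% of all genes tested, and above all 3 for 19, beside 13.4%. By limma (adjusted p under 0.05 over all genes tested) 36 members were lower, where the share over all genes was 25.1%, and 8 were higher, where it was 4.31%. Since the same libraries chose the members, nothing is read from these counts. Under quantile normalization, which moved the median of all genes from -0.56 to 0.17, the calls were 22 lower, beside 13.7% of all genes in that setting, and 15 higher, beside 13.1%. Without alpha-amanitin replicate 2 the higher calls numbered 4, beside 2.23% of all genes, of which Slc30a3 and Slc7a2 are among the 8.

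**Figure D3:**
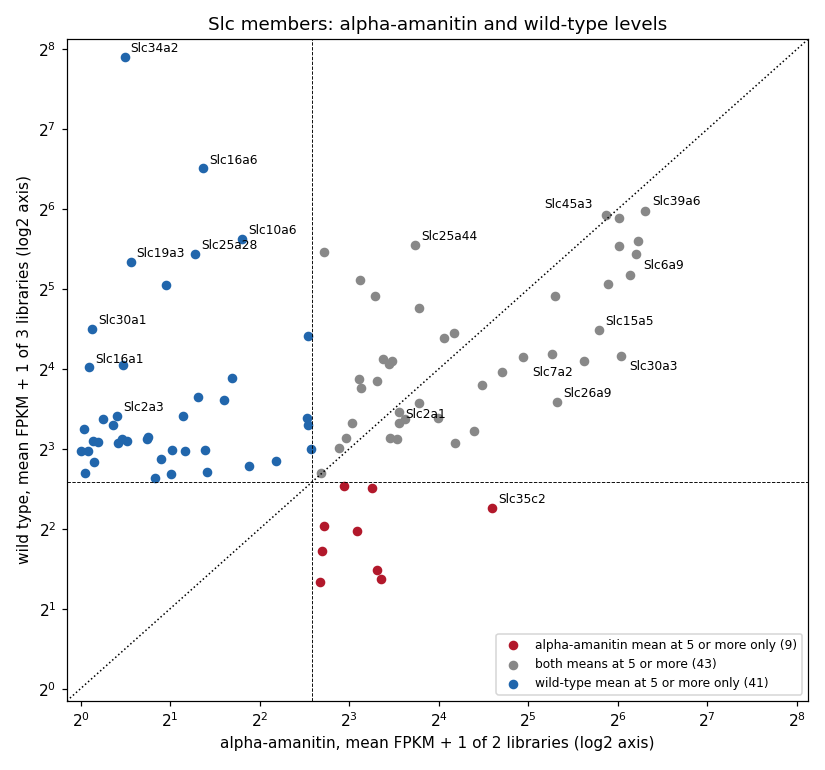
Mean level of each member with alpha-amanitin (horizontal axis, 2 libraries) against wild type (vertical axis, 3 libraries), as FPKM + 1 on log2 axes; the dotted line marks equal means and the dashed lines mark 5 FPKM. The 41 blue members sit left of the vertical dashed line, led by Slc34a2 at 0.407 FPKM with alpha-amanitin and 238 FPKM in wild type, and the 9 red members sit below the horizontal one.

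The promoter windows of 5 members are shown, chosen by hand and not as the largest differences. Slc34a2, Slc30a1 and Slc25a28 were lower with alpha-amanitin than in wild type, and Slc30a3 and Slc15a5 were higher with it. Each is the stretch of 250 bases before a RefSeq transcription start (GRCm38.p6), 5′ to 3′ on the strand of the gene. Capitals mark the GC box GGGCGG, which Sp1-type factors bind, and the CCAAT box CCAAT, which NF-Y binds, on either strand.
Slc34a2 (chr5:53049103-53049352, plus strand): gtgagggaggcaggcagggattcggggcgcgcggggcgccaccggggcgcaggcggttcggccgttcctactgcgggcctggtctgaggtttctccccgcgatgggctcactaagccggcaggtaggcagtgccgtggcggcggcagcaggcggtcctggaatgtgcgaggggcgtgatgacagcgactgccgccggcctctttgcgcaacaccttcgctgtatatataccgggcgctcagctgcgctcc
Slc30a1 (chr1:191906531-191906780, plus strand): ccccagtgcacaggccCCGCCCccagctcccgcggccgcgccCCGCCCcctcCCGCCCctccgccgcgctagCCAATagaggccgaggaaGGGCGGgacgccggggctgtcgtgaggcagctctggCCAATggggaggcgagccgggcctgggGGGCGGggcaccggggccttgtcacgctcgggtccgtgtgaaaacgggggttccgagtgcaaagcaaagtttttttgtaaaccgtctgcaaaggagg
Slc25a28 (chr19:43674882-43675131, minus strand): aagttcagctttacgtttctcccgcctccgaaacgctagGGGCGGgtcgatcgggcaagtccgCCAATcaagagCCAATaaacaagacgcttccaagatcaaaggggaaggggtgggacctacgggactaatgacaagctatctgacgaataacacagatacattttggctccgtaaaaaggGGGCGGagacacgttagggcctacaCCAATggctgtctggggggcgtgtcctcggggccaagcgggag
Slc30a3 (chr5:31108245-31108494, minus strand): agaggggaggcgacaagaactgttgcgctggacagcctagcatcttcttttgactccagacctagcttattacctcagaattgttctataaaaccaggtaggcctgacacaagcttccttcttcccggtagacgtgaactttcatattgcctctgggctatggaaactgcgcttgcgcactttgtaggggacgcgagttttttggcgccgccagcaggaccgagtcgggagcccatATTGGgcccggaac
Slc15a5 (chr6:138079917-138080166, minus strand): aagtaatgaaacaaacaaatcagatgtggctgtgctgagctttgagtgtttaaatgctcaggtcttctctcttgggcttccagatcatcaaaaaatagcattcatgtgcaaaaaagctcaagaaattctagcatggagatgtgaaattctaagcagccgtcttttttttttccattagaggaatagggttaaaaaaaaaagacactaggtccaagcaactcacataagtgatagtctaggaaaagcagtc
The Slc30a1 window holds 5 GC boxes and 2 CCAAT boxes and that of Slc25a28 2 GC boxes and 3 CCAAT boxes. Slc30a3 has 2 RefSeq starts, and the window of the one shown holds 1 CCAAT box and no GC box, while that of the other, at chr5:31093528-31093777, holds 2 GC boxes and no CCAAT box. Neither box occurs in the Slc34a2 window, which lies inside the gene span that the files give, or in that of Slc15a5, whose GC content is 37.2%. RefSeq windows were found for 68 of the 93 members, 91 windows in all, of which 62.6% hold a GC box and 38.5% a CCAAT box, beside 32.7% and 33.8% of all 32851 windows. The GC box share was 68.6% of 35 windows of members that passed through the wild-type mean alone, 55.8% of 43 of those that passed through both, and 69.2% of 13 of those that passed through the alpha-amanitin mean alone. The members were chosen by their level, while all 32851 windows were taken whatever the level of their gene. Whether that accounts for the higher GC box share was not tested. Windows of the same gene can overlap, and a match of letters is no binding site.

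Among phosphate carriers, Slc34a2, a sodium-phosphate cotransporter known from lung and intestine, was the member with the highest level. The gene (ENSMUSG00000029188.9) lies on the plus strand of chromosome 5, from 53038082 to 53071664 in mm10. It stood at 0.751 and 0.0622 FPKM with alpha-amanitin, 310.4 and 339 FPKM with Kdm5a+b morpholinos, 312 and 294 FPKM in mismatch controls and 265, 222 and 227 FPKM in wild type. Ranked by mean level among 32287 rows it held rank 10526 with alpha-amanitin, rank 38 with Kdm5a+b morpholinos, rank 36 in mismatch controls and rank 61 in wild type. Both alpha-amanitin libraries lay below every other one, at 0.407 ± 0.487 FPKM (SD, n = 2) against 238 ± 23.3 FPKM in wild type (SD, n = 3). The difference was -7.45 ± 0.25, given here and below as the change in log2(FPKM + 1) ± its standard error, a scale that understates changes of low genes. Slc20a1, the widespread type of sodium-phosphate cotransporter, stood at 32.2 and 44.8 FPKM with alpha-amanitin and 41.7, 23.1 and 22.3 FPKM in wild type, and the groups overlapped.

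Zinc transporters stood at both ends. Slc30a1 encodes ZnT1, which exports zinc across the plasma membrane, and stood at 0.049 and 0.142 FPKM with alpha-amanitin against 22.4, 23 and 19.5 FPKM in wild type (difference -4.37 ± 0.33). All 4 injected libraries, which did not choose the members, lay between 19 and 22.9 FPKM. Slc30a3 encodes ZnT3, which loads zinc into synaptic vesicles of neurons, and had 61 and 68.5 FPKM with alpha-amanitin against 22.7, 13.4 and 14.6 FPKM in wild type (difference 1.91 ± 0.31). Every injected library held 16.1 to 18.9 FPKM of it, within the wild-type range. Slc30a3 and Slc5a6, the vitamin carrier described below, are neighbours on chromosome 5 with 37181 bases between them. Slc30a9, a zinc carrier of mitochondria, passed through alpha-amanitin alone, at 4.42 and 13.5 FPKM against 0.732, 2.48 and 2.19 FPKM in wild type.

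The ZIP family brings zinc into the cytosol. Slc39a6 and Slc39a10, which encode ZIP6 and ZIP10, zinc importers of the mouse oocyte, had high levels in every library. Slc39a6 stood at 71.4 and 84.4 FPKM with alpha-amanitin, 65.9 and 59.3 FPKM with Kdm5a+b morpholinos, 62.2 and 92.5 FPKM in mismatch controls and 57.4, 61.2 and 67.7 FPKM in wild type. Both alpha-amanitin libraries lay above the wild-type ones and inside the range of the mismatch controls. Slc39a10 stood at 52.4 and 74.9 FPKM with alpha-amanitin and 73.1, 66.3 and 35.4 FPKM in wild type, with overlap. By contrast Slc39a4, the zinc importer of the intestine, stood at 0.0145 and 0.0405 FPKM with alpha-amanitin and 5.9, 7.49 and 12.1 FPKM in wild type, with no overlap. Slc39a1 stood at 0.483 and 0.266 FPKM with alpha-amanitin and 7.6, 6.61 and 8.87 FPKM in wild type. The groups did not overlap there either. The copper importer Slc31a1 (CTR1) had 5.42 and 4.25 FPKM with alpha-amanitin and 22.4, 12.9 and 25.7 FPKM in wild type. The iron importer Slc11a2 (DMT1) had 1.52 and 1.73 FPKM with alpha-amanitin and 4.95, 11.8 and 3.95 FPKM in wild type, and in both of these genes the alpha-amanitin libraries lay below wild type. Of the 11 metal ion members 7 lay below 0 by their log2 difference, beside 65.8% of all genes. Under quantile normalization, where the median of all genes was 0.17, 6 lay below 0.

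**Figure D4:**
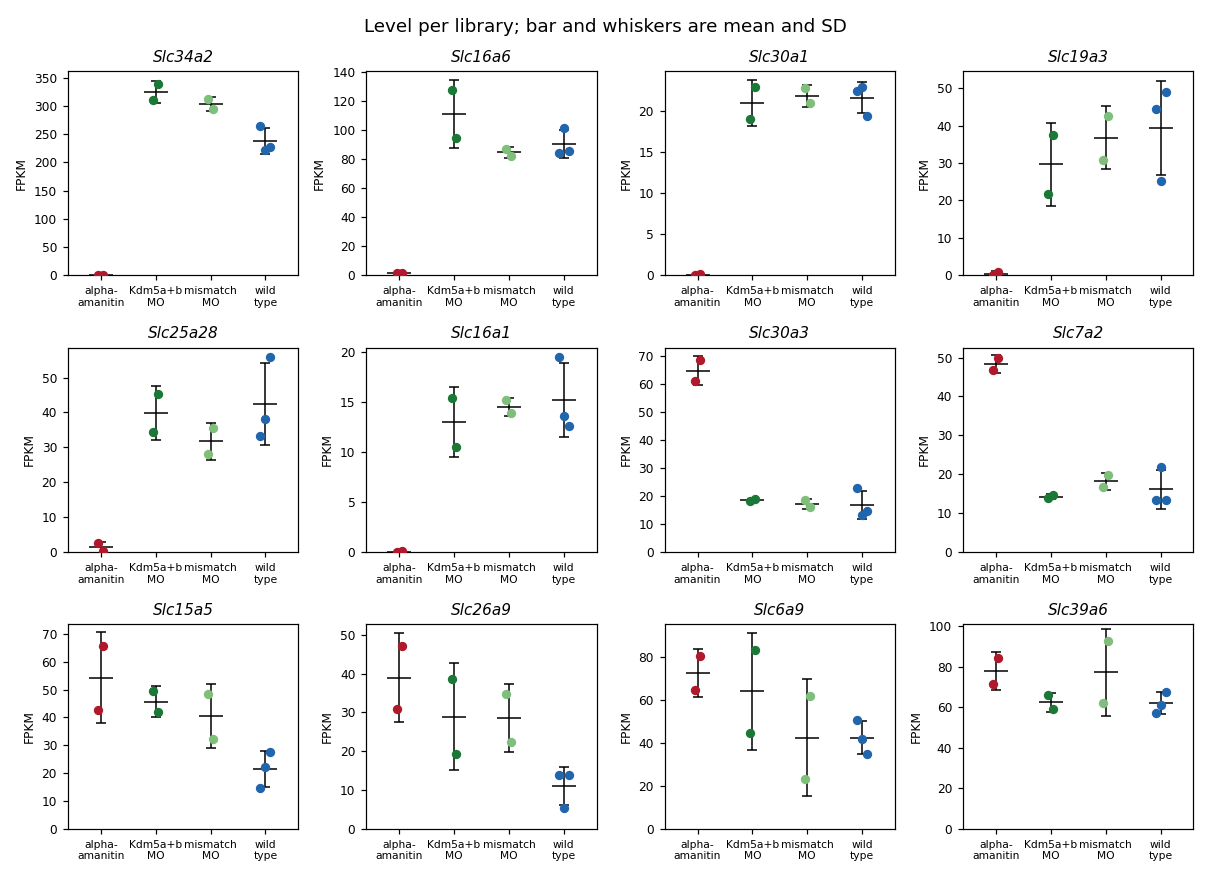
FPKM of 12 members in each library (points), with the mean and SD of the group (bar and whiskers); groups run from alpha-amanitin to wild type, and each panel has its own axis from 0. Slc34a2, Slc16a6, Slc30a1, Slc19a3, Slc25a28 and Slc16a1 lie near 0 with alpha-amanitin, Slc30a3 and Slc7a2 lie above all other libraries with it, and all libraries hold 57.4 FPKM of Slc39a6 or more.

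Carriers of fuels were split. Slc16a1 encodes MCT1, a carrier of lactate and pyruvate, and stood at 0.0253 and 0.114 FPKM with alpha-amanitin, 15.5 and 10.5 FPKM with Kdm5a+b morpholinos, 15.2 and 13.9 FPKM in mismatch controls and 19.5, 13.6 and 12.6 FPKM in wild type. Slc16a6 encodes MCT7, linked in zebrafish to export of ketone bodies, and stood at 1.63 and 1.53 FPKM with alpha-amanitin, 127 and 94.6 FPKM with Kdm5a+b morpholinos, 87.1 and 82 FPKM in mismatch controls and 84.2, 101 and 85.5 FPKM in wild type. The other 3 members of the family, Slc16a10, Slc16a11 and Slc16a13, overlapped between alpha-amanitin and wild type. Slc16a11 and Slc16a13 are neighbours on chromosome 11, with 371 bases between them.

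Glucose transporters showed the same division. Slc2a1 (GLUT1) stood at 13.7 and 7.79 FPKM with alpha-amanitin and 10.3, 6.97 and 9.83 FPKM in wild type, with overlap. For Slc2a3 (GLUT3) the values were 0.298 and 0.351 FPKM with alpha-amanitin and 6.74, 9.08 and 13.1 FPKM in wild type, and the injected libraries, at 2.46 to 4.79 FPKM, all lay below the wild-type ones. Slc45a3, related to sugar carriers, stood at 60.02 and 54.5 FPKM with alpha-amanitin and 92.9, 32.3 and 53.7 FPKM in wild type. Slc5a3, which imports the osmolyte myo-inositol, had 0.26 and 0.0225 FPKM with alpha-amanitin and 7.12, 11.2 and 4.03 FPKM in wild type. Slc5a6, the carrier of biotin and pantothenate, had 0.38 and 0 FPKM with alpha-amanitin and 9.49, 11.9 and 6.73 FPKM in wild type. Of the 6 members in the sugar and sodium-coupled class 4 lay below 0 in log2 difference, beside 65.8% of all genes. The count was also 4 under quantile normalization, where the median of all genes was 0.17.

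Vitamin carriers included the thiamine transporter Slc19a3, at 0.0726 and 0.874 FPKM with alpha-amanitin against 44.3, 25.2 and 48.9 FPKM in wild type (difference -4.78 ± 0.42). The riboflavin transporter Slc52a2 stood at 0.0985 and 0.0276 FPKM with alpha-amanitin and 9.62, 6.47 and 4.52 FPKM in wild type. Slc23a2, a vitamin C transporter, differed between the alpha-amanitin libraries, at 60.3 and 14.9 FPKM, beside 17.9, 18.2 and 15.3 FPKM in wild type, with a log2 difference of 1.76 if alpha-amanitin replicate 2 is left out and of -0.19 if replicate 1 is. The choline transporter-like gene Slc44a2 had 6.26 and 11.6 FPKM with alpha-amanitin and 15.5, 12.8 and 12.1 FPKM in wild type.

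Of 16 amino acid and peptide members 9 lay above 0 and 7 below by their log2 difference, beside 33.9% and 65.8% of all genes. By family number these include Slc7a6os (below 0), which is not a transporter. Under quantile normalization, where the median of all genes was 0.17, 10 lay above 0 and 6 below. Slc6a9 encodes the glycine transporter GLYT1, which mouse eggs and cleavage embryos use to hold their volume. It stood at 64.8 and 80.3 FPKM with alpha-amanitin, 44.8 and 83.3 FPKM with Kdm5a+b morpholinos, 23.1 and 61.6 FPKM in mismatch controls and 50.5, 42.1 and 35 FPKM in wild type, and both alpha-amanitin libraries lay above wild type. Slc7a2, a carrier of cationic amino acids, had 46.7 and 49.9 FPKM with alpha-amanitin against 13.3, 21.9 and 13.3 FPKM in wild type (difference 1.56 ± 0.32). The taurine transporter Slc6a6 had 25.4 and 24.8 FPKM with alpha-amanitin against 10.4, 13.5 and 19.7 FPKM in wild type, with no overlap. The proline transporter Slc6a7 had 18.9 and 15.4 FPKM with alpha-amanitin against 8.86, 7.34 and 5.95 FPKM in wild type. In all 4 of these genes the alpha-amanitin libraries lay above the wild-type ones.

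Other amino acid carriers were low with alpha-amanitin. Slc1a5 (ASCT2), which exchanges glutamine and other neutral amino acids, stood at 0.775 and 0 FPKM with alpha-amanitin, 12.4 and 9.16 FPKM with Kdm5a+b morpholinos, 14 and 7.89 FPKM in mismatch controls and 17.5, 14.7 and 14.2 FPKM in wild type. The glutamate transporter Slc1a1 had 2.22 and 0.195 FPKM with alpha-amanitin and 9.78, 10.3 and 8.88 FPKM in wild type. Slc43a2 (LAT4), which releases large neutral amino acids, had 0.529 and 0.0392 FPKM with alpha-amanitin and 4.47, 13.4 and 8.57 FPKM in wild type. Slc15a4 carries histidine and peptides out of lysosomes, and it had 0.192 and 0.0157 FPKM with alpha-amanitin and 7.63, 6.22 and 8.93 FPKM in wild type. The groups did not overlap in these 4 genes. Slc3a2, the heavy chain that pairs with light chains of family Slc7, had 7.95 and 12.3 FPKM with alpha-amanitin and 13.3, 16.2 and 18.8 FPKM in wild type, and the sign of its log2 difference turned under quantile normalization (-0.64 and 0.09). Slc43a3, whose human protein carries purine nucleobases, had 58.5 and 58 FPKM with alpha-amanitin and 43.6, 34.2 and 19.1 FPKM in wild type. Slc7a6os stood at 4.06 and 7.13 FPKM with alpha-amanitin and 27, 58.1 and 44.2 FPKM in wild type.

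Of 21 mitochondrial carriers 16 lay below 0 by their log2 difference, where the share over all genes was 65.8%. Under quantile normalization, where the median of all genes was 0.17, 11 lay below 0. Slc25a28, which encodes mitoferrin-2 and brings iron into mitochondria, stood at 2.51 and 0.351 FPKM with alpha-amanitin, 34.4 and 45.4 FPKM with Kdm5a+b morpholinos, 28 and 35.5 FPKM in mismatch controls and 33.4, 38.1 and 55.8 FPKM in wild type. Slc25a25, a calcium-regulated carrier of ATP-magnesium and phosphate, had 1.04 and 0.843 FPKM with alpha-amanitin and 30.5, 27.8 and 38 FPKM in wild type. Slc25a44, a carrier of branched-chain amino acids, had 17.2 and 7.45 FPKM with alpha-amanitin and 61.7, 41.1 and 34.8 FPKM in wild type. The groups did not overlap in these 3 genes.

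The phosphate carrier Slc25a3, which serves ATP synthesis, stood at 9.44 and 8.08 FPKM with alpha-amanitin and 22.2, 31.9 and 32.9 FPKM in wild type. Slc25a5, an ADP/ATP exchanger, had 3.62 and 0.469 FPKM with alpha-amanitin and 12.8, 12.6 and 8.12 FPKM in wild type. In these genes both alpha-amanitin libraries lay below wild type. Slc25a33 and Slc25a36 carry pyrimidine nucleotides, and Slc25a33 had 0.478 and 0.395 FPKM with alpha-amanitin and 5.73, 8.11 and 8.77 FPKM in wild type. At the other end, Slc25a48 had 19.6 and 20.3 FPKM with alpha-amanitin and 10.9, 4.9 and 9.14 FPKM in wild type. Slc25a23, another calcium-regulated ATP-magnesium carrier, had 23 and 36.5 FPKM with alpha-amanitin and 11.1, 21.1 and 17.8 FPKM in wild type. Both stood above all wild-type libraries with alpha-amanitin. The glycine carrier Slc25a38, needed for heme synthesis, overlapped between groups at 13.5 and 20.6 FPKM with alpha-amanitin and 32.6, 15.2 and 14.6 FPKM in wild type.

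Of 14 members in ion exchange and cotransport 9 lay above 0 and 5 below, beside 33.9% and 65.8% of all genes. By family number these include Slc4a1ap (above 0) and Slc9a3r1 (below 0), which are not transporters. Under quantile normalization, where the median of all genes was 0.17, 10 lay above 0 and 4 below. Slc12a2 (NKCC1), the sodium, potassium and chloride cotransporter, had 1.76 and 2.73 FPKM with alpha-amanitin and 11.1, 18 and 12.3 FPKM in wild type. The groups did not overlap. Slc26a9, a chloride carrier, stood at 30.9 and 47 FPKM with alpha-amanitin, 38.7 and 19.2 FPKM with Kdm5a+b morpholinos, 34.8 and 22.4 FPKM in mismatch controls and 13.8, 5.39 and 14 FPKM in wild type. Every other library lay above the 3 wild-type ones. Slc24a2, an exchanger of sodium for calcium and potassium, passed through alpha-amanitin alone, at 14.3 and 4.13 FPKM against 2.44, 1.56 and 0.734 FPKM in wild type. Slc9a3r1 had 8.91 and 6.46 FPKM with alpha-amanitin and 51.3, 18.6 and 31.2 FPKM in wild type. Slc4a1ap, which overlaps Supt7l, had 53.7 and 73.6 FPKM with alpha-amanitin and 25.6, 72.3 and 38.8 FPKM in wild type, and its groups overlapped.

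Carriers of the secretory pathway included Slc35c2, a relative of the GDP-fucose carrier. It stood at 11.6 and 34.8 FPKM with alpha-amanitin, 11.9 and 9.44 FPKM with Kdm5a+b morpholinos, 7.59 and 4.01 FPKM in mismatch controls and 3.33, 4.92 and 3.12 FPKM in wild type, a difference of 2.17 ± 0.50 from wild type with alpha-amanitin (1.41 without alpha-amanitin replicate 2 and 2.92 without replicate 1). Slc35a4, which overlaps Apbb3, had 57.9 and 80.8 FPKM with alpha-amanitin and 27, 40.2 and 38.5 FPKM in wild type. The nucleoside transporter Slc29a2 (ENT2) had 1.38 and 0 FPKM with alpha-amanitin and 9.13, 4.16 and 10.3 FPKM in wild type. Slc35e3 had 0.0751 and 0.146 FPKM with alpha-amanitin and 4.02, 8.28 and 6.05 FPKM in wild type, and in Slc35a4, Slc29a2 and Slc35e3 the groups did not overlap. Among organic ion carriers, Slc10a6, a carrier of steroid sulfates, had 4.06 and 0.929 FPKM with alpha-amanitin and 35.6, 60.5 and 48.9 FPKM in wild type. Slc22a23, an orphan of the organic ion family, had 9.68 and 15.8 FPKM with alpha-amanitin and 10.9, 10.3 and 11.4 FPKM in wild type.

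Replicates of several remaining members disagreed. Of the 84 members with a mean of at least 5 FPKM in wild type, 14 differed at least 3-fold between wild-type libraries, and the median coefficient of variation over the members in wild type was 34.9%. Slc25a1, the citrate carrier of mitochondria, stood at 10.8 and 2.78 FPKM with alpha-amanitin and 1.59, 4.32 and 17.5 FPKM in wild type. Slc25a39, a mitochondrial glutathione carrier, had 2.2 and 12.2 FPKM with alpha-amanitin and 7.99, 5.92 and 13.2 FPKM in wild type. Slc24a3, another sodium-calcium-potassium exchanger, had 15.8 and 5.74 FPKM with alpha-amanitin and 2.19, 11.9 and 15.9 FPKM in wild type. All 3 overlapped between the groups, as did the bicarbonate transporter Slc4a8, at 13.6 and 9.05 FPKM with alpha-amanitin and 15.8, 4.3 and 7.9 FPKM in wild type. The glucose transporter Slc2a8 (GLUT8) was near or at 0 with alpha-amanitin, at 0.677 and 0 FPKM, and its wild-type values of 14.4, 3.95 and 3.88 FPKM passed the threshold through replicate 1. Slc27a5, a fatty acid and bile acid ligase of liver, stood at 0 and 0.00858 FPKM with alpha-amanitin and 3.33, 2.72 and 14.6 FPKM in wild type, and passed through replicate 3. Slc4a11 stood at 0.0703 and 0 FPKM with alpha-amanitin and 5.82, 0.787 and 9.92 FPKM in wild type, likewise through replicate 3.

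Further mitochondrial members covered amino acid, vitamin and cofactor transport. Slc25a16 had 13.3 and 12.2 FPKM with alpha-amanitin and 34, 17.5 and 26.9 FPKM in wild type, with no overlap. The ornithine carrier Slc25a15 had 18.3 and 13.2 FPKM with alpha-amanitin and 28.3, 13.1 and 18.4 FPKM in wild type, which overlap, while the injected libraries, at 8.56 to 10.4 FPKM, all lay below both groups. The carrier of NAD, Slc25a51, had 4.7 and 4.88 FPKM with alpha-amanitin and 9, 7.35 and 12 FPKM in wild type, with no overlap, but its log2 difference changed sign under quantile normalization. The carnitine and acylcarnitine carrier Slc25a20 had 2.58 and 0.744 FPKM with alpha-amanitin and 3.95, 8.86 and 3.9 FPKM in wild type, and Slc25a32, known for folate and flavin transport, stood at 0.412 and 4.98 FPKM with alpha-amanitin and 3.18, 8.62 and 5.95 FPKM in wild type. Slc25a20 did not overlap between these groups and Slc25a32 did. In the Golgi, Slc35c1 carries GDP-fucose, and it had 1.87 and 5.18 FPKM with alpha-amanitin and 7.35, 1.34 and 9.93 FPKM in wild type. Slc35f2 had 2.97 and 0 FPKM with alpha-amanitin, 9.82 and 11.4 FPKM with Kdm5a+b morpholinos, 12.6 and 5.01 FPKM in mismatch controls and 8.87, 15.8 and 10.02 FPKM in wild type. Slc9a3 (NHE3), the sodium-proton exchanger of gut and kidney, passed through alpha-amanitin alone, at 6.08 and 4.88 FPKM against 3.93, 1.06 and 1.87 FPKM in wild type, with no overlap. Slc41a1, a magnesium carrier, had 8.61 and 10.2 FPKM with alpha-amanitin and 19.7, 10.3 and 19.2 FPKM in wild type, with no overlap, but the sign of its log2 difference turned under quantile normalization. The members not named had 0.306 to 28.9 FPKM over the 9 libraries.

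The 4 injected libraries took no part in the rule, and most members that passed through wild type were present in them. Of the 41 members that passed through wild type alone, 37 stood at 1 FPKM or more in all 4 injected libraries and 19 at 5 FPKM or more. In both alpha-amanitin libraries 18 of the 41 lay under 1 FPKM. The rule itself held their alpha-amanitin mean under 5 FPKM, so nothing is read from that count. Shares over all genes are not given for the counts in this paragraph. Of the 9 that passed through alpha-amanitin alone, 5 stood at 1 FPKM or more in all 4 injected libraries and 0 at 5 FPKM or more. Of the 43 that passed through both, 42 stood at 1 FPKM or more in all 4 and 32 at 5 FPKM or more.

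Kdm5a+b morpholinos against mismatch controls asks which transcripts depend on the demethylases, with injection matched. No member changed by the test: 0 of 93 were higher and 0 lower by limma (adjusted p = 1 for each), where the share over all 13137 genes was 0% in each direction. At an unadjusted limma p under 0.05, 0 members were higher, beside 1.85% of all genes, and 1 was lower, beside 1.3%. Both Kdm5a+b libraries lay above both controls for 12 members (12.9%, beside 16.5% of all genes) and below both for 11 (11.8%, beside 16.8%). The log2 difference was above 0 in 47 members, beside 50.2% of all genes, and below 0 in 46, beside 49.6%, with a median of 0.02 (quartiles -0.22 and 0.30), beside 0.00 (quartiles -0.33 and 0.35) over all genes. The standard error of a member's difference was 0.27 to 1.11, and a difference larger than its standard error can also miss the threshold with these libraries. Whether replicates are separate embryo collections is not in the labels, so a p-value reflects the spread among the libraries at hand, possibly technical, and an exact permutation test of 2 against 2 libraries cannot go below a two-sided p of 0.333.

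**Figure D5:**
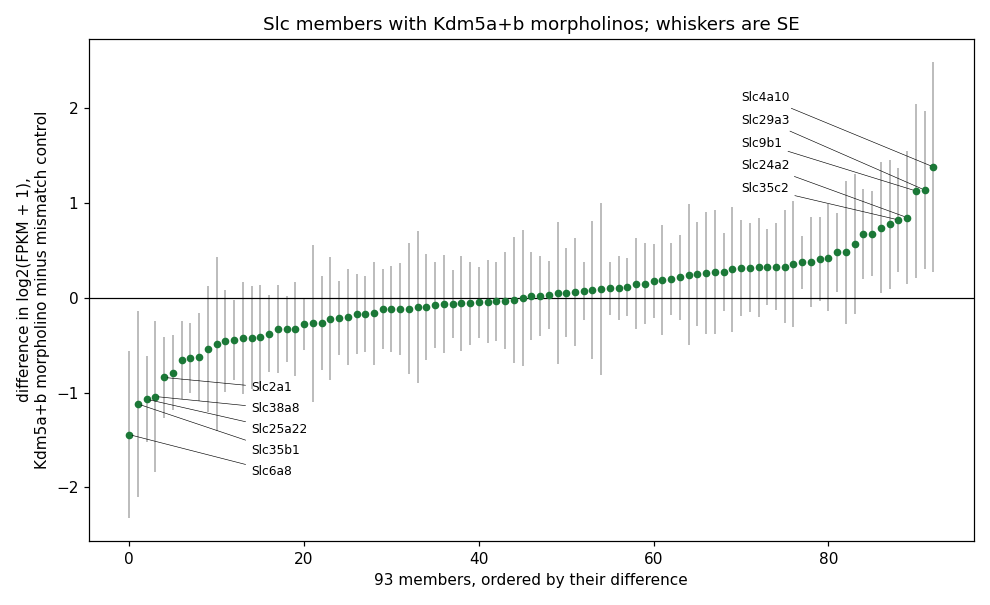
Difference in log2(FPKM + 1) between Kdm5a+b morpholino and mismatch control libraries (2 each) for the 93 members, ordered by size; whiskers are 1 standard error of the limma fit, and the 5 members at each end are named. Differences run from -1.44 (Slc6a8) to 1.38 (Slc4a10), and 47 members lie above 0.

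The lowest unadjusted p belonged to Slc25a22, a mitochondrial glutamate carrier. It stood at 1.49 and 1.52 FPKM with Kdm5a+b morpholinos against 4.34 and 4.18 FPKM in mismatch controls (difference -1.07 ± 0.45, unadjusted p = 0.0385, limma adjusted p = 1). Its wild-type values, 3.19, 3.5 and 2.56 FPKM, also exceeded those with Kdm5a+b morpholinos. Slc3a2 stood at 10.6 and 10.8 FPKM with Kdm5a+b morpholinos and 14.8 and 25.1 FPKM in mismatch controls (difference -0.79 ± 0.40). Slc2a1 stood at 5.42 and 6.56 FPKM with Kdm5a+b morpholinos and 9.79 and 13.4 FPKM in mismatch controls (difference -0.84 ± 0.43). In these 3 genes both Kdm5a+b libraries lay below both controls, and none passed the test. The others with the smallest p below 0 were Slc25a25 and the creatine transporter Slc6a8. Slc25a25 had 32.8 and 19 FPKM with Kdm5a+b morpholinos against 37.3 and 41.7 FPKM in mismatch controls (difference -0.63 ± 0.37). Slc6a8 had 2.86 and 0.766 FPKM with Kdm5a+b morpholinos against 5.48 and 6.8 FPKM in mismatch controls (difference -1.44 ± 0.88), and 2.5 and 0 FPKM with alpha-amanitin against 6.52, 12.8 and 1.16 FPKM in wild type.

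On the higher side the smallest p belonged to Slc35c2, at 11.9 and 9.44 FPKM with Kdm5a+b morpholinos and 7.59 and 4.01 FPKM in mismatch controls (difference 0.82 ± 0.54). Slc6a9 had 44.8 and 83.3 FPKM with Kdm5a+b morpholinos and 23.1 and 61.6 FPKM in mismatch controls, which overlap, and its difference of 0.68 ± 0.45 was -0.012 without mismatch control replicate 1. Slc36a1, a proton-coupled amino acid carrier of lysosomes, had 5.05 and 7.24 FPKM with Kdm5a+b morpholinos and 3.5 and 3.39 FPKM in mismatch controls (difference 0.67 ± 0.47). Slc29a3, a lysosomal nucleoside transporter, had 4.21 and 15.4 FPKM with Kdm5a+b morpholinos and 3.92 and 2.59 FPKM in mismatch controls, and its difference of 1.14 ± 0.84 was 0.31 without Kdm5a+b replicate 2 and 1.96 without replicate 1. Slc16a6 had 127 and 94.6 FPKM with Kdm5a+b morpholinos and 87.1 and 82 FPKM in mismatch controls (difference 0.37 ± 0.28). None of these 5 passed the test.

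Mismatch controls against wild type shows how embryos with a control injection differed from wild type. By limma 0 members were higher and 0 lower (adjusted p under 0.05), beside 0% of all genes in each direction, and at an unadjusted p under 0.05 there were 2 higher (Slc15a5 and Slc26a9), beside 2.54% of all genes, and 5 lower (Slc25a15, Slc25a16, Slc2a3, Slc35a5 and Slc36a1), beside 2.15%. Both control libraries lay above all 3 wild-type ones for 8 members, beside 9.26% of all genes, and below for 11, beside 8.85%. The log2 difference was above 0 in 42 members, beside 49.2% of all genes, and below 0 in 51, beside 50.7%. The median difference was -0.07 (quartiles -0.48 and 0.20) over the members and -0.01 (quartiles -0.35 and 0.33) over all genes. Wild-type levels helped to choose the members, so these are descriptions.

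Among the largest differences above 0 were those of Slc26a9 and of Slc15a5. Slc15a5, of the peptide transporter family, stood at 42.8 and 65.8 FPKM with alpha-amanitin, 49.6 and 41.8 FPKM with Kdm5a+b morpholinos, 48.6 and 32.3 FPKM in mismatch controls and 14.6, 22.2 and 27.7 FPKM in wild type. In Slc15a5 and in Slc26a9 every library of the other 3 groups lay above all wild-type libraries. The differences from wild type were 1.31 ± 0.35 with alpha-amanitin and 0.90 ± 0.35 in mismatch controls for Slc15a5, and 1.80 ± 0.47 and 1.37 ± 0.47 for Slc26a9, 2 comparisons that share the wild-type libraries. The largest differences below 0 were those of Slc25a12, an aspartate-glutamate carrier, at 3.51 and 0.498 FPKM in mismatch controls and 8.06, 8.02 and 2.91 FPKM in wild type, of Slc16a13 and of Slc36a1. Slc16a13 stood at 7.57 and 2.08 FPKM in mismatch controls and 21.9, 5.62 and 13.6 FPKM in wild type, with overlap. Slc36a1 stood at 3.5 and 3.39 FPKM in mismatch controls and 13.5, 5.29 and 9.64 FPKM in wild type, with none.

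Pumps, channels and carriers outside the Slc symbols were counted as a frame for the members, from lists that the rule did not use. Of 80 such genes tested, 19 fell (23.8%, beside 25.1% of all genes) and 3 rose (3.75%, beside 4.31%) with alpha-amanitin by limma (adjusted p under 0.05), against 10 (12.5%, beside 13.7% of all genes) and 8 (10%, beside 13.1%) under quantile normalization. Among ion pumps 3 of 9 fell and 1 rose (Atp2b4). Among subunits of the V-type proton pump 4 of 17 fell (Atp6v1d, Atp6v0e, Atp6v1h and Atp6v1e1) and 0 rose. Among ABC transporters 3 of 24 fell (Abcg1, Abcf1 and Abcf2) and 1 rose (Abcc1), and of other carriers and helpers 7 of 28 fell and 1 rose (Vdac2). Both aquaporins tested, Aqp9 and Aqp11, fell. Under quantile normalization ABC transporters had 4 higher and 1 lower call, the other direction.

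Values of 3 of these genes, chosen after their values were seen, are given. Atp1b2, a beta subunit of the sodium pump, had 0 listed for it in either alpha-amanitin library against 16.4, 23.5 and 26.4 FPKM in wild type. Mpc2, a subunit of the mitochondrial pyruvate carrier, had 2.36 and 0.487 FPKM with alpha-amanitin against 35.3, 43.5 and 45.5 FPKM in wild type (limma adjusted p = 3.67e-05). The sodium pump drives the gradient that many Slc proteins use, and Atp1b2 lay below wild type in each alpha-amanitin library. Aqp9, a channel for water and glycerol, had 6.28 and 14.2 FPKM with alpha-amanitin against 31.9, 22.8 and 32.4 FPKM in wild type (limma adjusted p = 0.0208, and 0.161 under quantile normalization). In the Kdm5a+b and the mismatch control comparisons 0 genes of these lists passed in either direction.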

How the data were processed

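RNA-seq of mouse late 2-cell embryos was used (9 libraries in 4 groups), made from total RNA with a TruSeq kit, per the labels' protocols. FPKM values per gene, with lower and upper bounds and a status, were deposited by the authors in the layout that Cufflinks writes, per the file headers. The submitters' processing notes name BWA, Picard, Cufflinks, Trimmomatic, Bismark 12.5, SAMtools and mm10, with no role or order; which aligner made the RNA alignments, and with which annotation, is not given in the sources used here. FPKM divides by length and library total, so a change in a few abundant transcripts moves all others, and no counts or depths are held.

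Members and lists were chosen with earlier results of these data known. All 93 members had the status OK in every library, and their IDs matched GENCODE M21. Genes that reached 1 FPKM in 2 or more libraries were fitted together on log2(FPKM + 1) (limma 3.58.1, R 4.3.3), with 1 mean per group, empirical Bayes with trend, two-sided p-values and Benjamini-Hochberg adjustment over all 13137 genes, called under 0.05, after a test on simulated data. The genes named were the 10 highest in wild type and the 10 highest with alpha-amanitin, the 8 largest differences each way with alpha-amanitin, the 5 smallest p each way with Kdm5a+b morpholinos, the 3 largest differences each way in mismatch controls, the 2 highest of each substrate class, the 3 genes on either side of the threshold, the genes that are no transporter, and selected embryo transporters where measured; other members were named to complete a family or class. A few genes that these rules name are not reported here. Substrate classes were assigned by hand from family numbers. Alternatives changed the pseudocount, filter, scaling, model, replicate block and libraries. Sequences are from RefSeq (GRCm38.p6).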

Additional observations from a re-analysis of the deposited data

How the results depend on the processing

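The number of members was 93 at a threshold of 5 FPKM, 117 at 3 FPKM and 52 at 10 FPKM, and 88 to 96 when 1 library of wild type or alpha-amanitin was left out. For alpha-amanitin against wild type, the 8 higher calls became 5 with no filter on low values, 5 with only these 2 groups in the fit and 15 under quantile normalization, and 4 to 8 when 1 library was left out. The 36 lower calls (beside 25.1% of all genes) became 22 under quantile normalization (beside 13.7%). With 1 wild-type library left out they were 33 to 34, beside 22.5% to 24.7%. Quantile normalization moved the members' median difference to 0.13, against -0.66 as reported, and it was -0.89 to -0.58 with 1 library left out; 15 members changed from a difference below 0 to one above it. Over all 19 alternatives, 2 higher calls (Slc30a3 and Slc7a2) and 22 lower calls held throughout. The share of all genes whose call held is not given here, so nothing is read from these numbers. In the Kdm5a+b comparison 0 members passed under any alternative, the difference of Slc6a9 was -0.012 without mismatch control replicate 1 and 1.36 without replicate 2, and the count at an unadjusted p under 0.05 was 0 to 3. Correlations between same-numbered libraries were -0.0477 to 0.041, which shows no pairing by number. With so few libraries they cannot exclude that same-numbered libraries were collected together, and the labels do not say. With the replicate block there were 6 higher and 33 lower calls with alpha-amanitin, beside 2.82% and 20.9% of all genes. With Kdm5a+b morpholinos there were 0 and 0, beside 0% of all genes in each direction. With no counts in the files the depth behind each value is unknown, and 2 libraries a group limit what the tests can detect.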
